A study of Homo sapiens with 62 samples.

Results

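The 10 genes described here belong to the heat shock and HSP90 chaperone system. Earlier results of these data were known when they were chosen by name: HSP90AA1, HSP90AB1, HSPA1A, HSPA1B, HSPA8, HSPH1, DNAJB1, HSPB1, HSPD1 and BAG3. They were 10 of the 29794 genes in the count tables. Newly made RNA had been measured by SLAM-seq, in which cells take up 4-thiouridine (4sU) for 2 h, the 4sU in the RNA is alkylated, and reads from labelled RNA are recognised by T>C conversions. The tables gave, for each gene, the reads with T>C conversions and all reads over its 3′UTR. The 62 libraries fell into 12 groups.

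Both cell lines are established human pancreatic cancer lines, AsPC-1 of the classical subtype and T3M-4 of the basal-like subtype. In every group of both lines endogenous KLF5 had been knocked out with a guide RNA and replaced by KLF5 carrying an FKBP12-F36V-FLAG tag, so that the controls share this genotype and no group has unmodified KLF5. The dTAG groups (AsPC-1 n = 10, T3M-4 n = 4) received dTAGv-1, which brings the tagged protein to an E3 ligase for degradation, and the NEG groups (n = 10 and n = 4) received its inactive analogue, each for 4 h. The CB-6644 groups received an inhibitor of the RUVBL1/2 ATPases for 4 h (AsPC-1 n = 5, T3M-4 n = 4) or 12 h (AsPC-1 n = 4). The NVP-2 groups (n = 4 in each line, 4 h) received an inhibitor of CDK9, the kinase that releases paused RNA polymerase II. The DMSO groups (solvent; AsPC-1 4 h n = 5 and 12 h n = 4, T3M-4 4 h n = 4) were the controls of both inhibitors. The question asked of the chaperone genes was whether their new RNA changed when KLF5 was degraded, when the ATPases that work with HSP90 were inhibited, or when pause release was blocked.

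HSP90 folds and stabilises kinases, nuclear receptors and other client proteins, receiving many of them from HSP70. HSP70 binds unfolded chains in a cycle that J-domain proteins start and nucleotide exchange factors end. HSF1 is the transcription factor of the heat shock response, and it binds heat shock elements, which are inverted repeats of the unit nGAAn; the release of paused polymerase is a well-known step in the induction of heat shock genes. RUVBL1 and RUVBL2 form, with RPAP3 and PIH1D1, the R2TP complex, an HSP90 co-chaperone that helps assemble large protein complexes.

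The members cover these roles. HSP90AA1 and HSP90AB1 encode the inducible and the constitutive cytosolic HSP90. HSPA8 encodes the constitutive HSP70 and HSPA1A and HSPA1B the stress-inducible ones. DNAJB1 encodes the J-domain protein HSP40, HSPH1 the large HSP110 chaperone, which acts as a nucleotide exchange factor, and BAG3 another exchange factor with a role in selective autophagy. HSPB1 encodes the small heat shock protein HSP27, and HSPD1 the mitochondrial chaperonin HSP60.

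Canonical heat shock elements in the promoters are shown because they are the sequence these genes are best known to share, and because no measured value was used to find them. The window ran from 250 bases before to 50 bases after the start of each RefSeq gene (GRCh38.p14), and both strands were searched for 3 alternating units in the forms GAANNTTCNNGAA and TTCNNGAANNTTC, each the reverse complement of the other. A match was found in 4 of the 10 member genes (40.0%), against 166 of the 27305 genes with a window (0.608%). HSPA1A, HSPA1B, HSPH1, DNAJB1, HSPB1 and BAG3 had no match to these letters in this window. The matches are given with their flanks, 5′ to 3′ on the strand of the gene, the match in capitals:
HSP90AA1: agggttcTTCCGGAAGGTTCgggaggc
HSP90AB1: gagcaggTTCTGGAAGATTCatgggct
HSP90AB1: gagattgTTCTGGAAGCTTCtggattc
HSPA8: cgagcttGAAAGTTCCAGAAcgctgcg
HSPA8: gggccccTTCTGGAAGGTTCtaagata
HSPD1: gcattTTCTGGAAAGTTCtggaacc
HSPD1: ttttctgGAAAGTTCTGGAAccgagcg
With its flanks, the HSP90AA1 stretch lies at chr14:102087113-102087139 on the minus strand, and its match starts 88 bases before the RefSeq start. The HSP90AB1 stretches, on the plus strand, lie at chr6:44247771-44247797 and chr6:44247824-44247850, with matches that start at -165 and -112. Those of HSPA8, on the minus strand, lie at chr11:123062347-123062373 and chr11:123062172-123062198, with matches at -230 and -55. The HSPD1 matches overlap each other and start at -245 and -240, in stretches at chr2:197500066-197500090 and chr2:197500061-197500087 on the minus strand.

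Reads were counted over 3′UTRs, and the members differed in the number of reads they had. DNAJB1 (chr19:14514769-14560391, minus strand, GRCh38) has 1670 bases of annotated 3′UTR at chr19:14514769-14516438, and HSPA8 (chr11:123057489-123063230, minus strand) has 248 bases at chr11:123057489-123057736. HSPA1A (chr6:31815543-31817946) and HSPA1B (chr6:31827738-31830254), both on the plus strand, are near-identical copies in their coding part. Their annotated 3′UTRs of 267 and 381 bases could be aligned over 252 bases, with 204 identical bases (81.0%) and a longest identical run of 9 bases. HSPA1A had 0 to 24 reads per AsPC-1 library and 0 to 204 per T3M-4 library, and HSPA1B 30 to 147 and 32 to 146. These very low counts make both genes uncertain. HSPA1A passed the filter on low counts within T3M-4 with dTAG and CB-6644 and in all reads with NVP-2, and in no comparison within AsPC-1. HSPA1B was filtered out only for T>C reads and the labelled share of NVP-2 in T3M-4. Every HSP90AB1 count was a multiple of 4 and every HSPA1A count a multiple of 2, so their counts exceed the number of reads behind them. Processed pseudogenes of HSP90AA1, HSP90AB1, HSPA8 and HSPD1 have rows of their own in the tables (3, 3, 11 and 12 of them), and reads that match a pseudogene could have been split from its parent gene.

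Library sizes ranged from 2240998 to 18311982 T>C reads and from 82676553 to 200298262 reads in all in AsPC-1, and from 3714015 to 27982537 and from 111132257 to 244524608 in T3M-4. In whole libraries, T>C reads made up 10.1% ± 0.62 (SD, n = 5) of all reads in AsPC-1 DMSO 4 h and 1.57% ± 0.24 (n = 4) in NVP-2. In T3M-4 it was 12.4% ± 1.56 in DMSO and 2.24% ± 0.42 in NVP-2 (n = 4 each). It was 9.30% ± 0.69 (n = 10) in AsPC-1 NEG and 8.001% ± 0.34 (n = 9) in dTAG. The all-reads values of 1 AsPC-1 dTAG library (replicate 3.1) were not used, since they repeat the T>C column of another library, so labelled shares and all-reads values of that group have n = 9. Neither an unlabelled control library nor a spike-in entered the analysis, so conversions that are not due to 4sU were not subtracted. Basal-like markers summed to 10.1 to 57.1 all-reads CPM, a depth-normalised read count, in AsPC-1 and 1774 to 4846 in T3M-4. Classical markers summed to 122 to 440 and 32.6 to 91.4, and both sums matched the subtypes given for the lines. The classical sums differed mainly through LGALS4, with medians of 116 in AsPC-1 and 0.287 in T3M-4. AGR2 had medians of 49.9 and 44.8, GATA6 4.05 and 1.65, and TFF1 1.02 and 0.531. Fibroblast and endothelial markers summed to at most 0.0886 CPM in AsPC-1 and 8.91 in T3M-4. Leukocyte markers summed to 3.62 to 24.2 CPM in AsPC-1, nearly all of it CD68, and 0.597 to 3.02 in T3M-4, with PTPRC, the defining leukocyte gene, at 0.741 CPM or less. The labels did not say whether replicates were separate cultures, and p-values measure only the spread between these libraries. KLF5 T>C reads were higher with dTAG in both lines (log2 fold change 0.60 ± 0.11 (SE), adjusted p = 0.00284, and 0.90 ± 0.15, adjusted p = 0.0258), which is no check of a degrader that acts on the protein.

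Each member was described by the following 3 measures. The T>C CPM is a gene's T>C reads in proportion to the T>C reads of its library, scaled by TMM (trimmed mean of M-values) over all libraries of a line. The all-reads CPM is the same for all reads. Fold changes come from each comparison's own fit, whose scaling differs slightly from that of the printed CPM. The labelled share is the percent of a gene's reads that carry T>C conversions. For a given gene it is higher where RNA turns over faster or is being made faster. Between genes it was not corrected for the sequence of the counted reads or for conversions not due to labelling. Changes are log2 fold changes ± SE from edgeR's quasi-likelihood test, and, for the labelled share, log2 changes of the odds from limma, fitted over all genes and called at a Benjamini-Hochberg adjusted p below 0.05.

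The members differed widely in labelled share under control conditions. In AsPC-1 DMSO 4 h libraries the mean share was 3.89% ± 0.37 for HSPB1, 5.73% ± 1.02 for HSP90AA1, 10.2% ± 1.28 for HSPD1 and 10.9% ± 1.16 for HSP90AB1 (SD, n = 5). It was 14.8% ± 1.29 for HSPA8 and 18.5% ± 3.01 for HSPH1. The highest shares were those of DNAJB1 (28.1% ± 5.38), BAG3 (30.2% ± 5.71) and HSPA1B (35.4% ± 10.7). HSPD1 and HSP90AB1, which are neighbours in this order, overlapped over the 5 libraries, as did DNAJB1, BAG3 and HSPA1B. In these libraries the HSP90 pair was thus split, the inducible gene having the lower labelled share. T3M-4 NEG libraries did not keep this order, with means of 10.9% for HSP90AA1 and 10.5% for HSP90AB1. In T3M-4 DMSO the order ran from HSPB1 (3.61% ± 0.83) and HSP90AA1 (8.15% ± 0.74) through HSP90AB1 (10.2% ± 2.1), HSPD1 (10.8% ± 2.23), HSPH1 (18.7% ± 2.46) and HSPA8 (22.8% ± 0.66) to BAG3 (31.5% ± 5.11) and DNAJB1 (37.1% ± 4.45). HSPA1B, highest in AsPC-1, was at 13.9% ± 8.46 in T3M-4, between HSPD1 and HSPH1, with libraries from 5.45% to 25%. Counting error was small for the 7 well-covered genes, with a Wilson 95% half-width of at most 0.687 percentage points in any library. It reached 4.4 points for BAG3, 15.9 for HSPA1B and 32.9 for HSPA1A, and these intervals cover counting error only. For HSP90AB1 and HSPA1A, whose counts exceed the reads behind them, the intervals were too narrow. Nearly all of the few HSPA1A reads carried conversions in T3M-4, where its mean share was 85% ± 19.1 in DMSO and 98.7% ± 1.97 in the DMSO and NEG libraries numbered 2.1 and 2.2 (n = 4 each). It was 100% in the 2 AsPC-1 DMSO 4 h libraries with any HSPA1A read and from 0% to 100% in NEG. Such shares stand apart from those of all other members, and the HSPA1A T>C values below are given as read counts, with nothing drawn from them about new RNA.

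**Figure D1:**
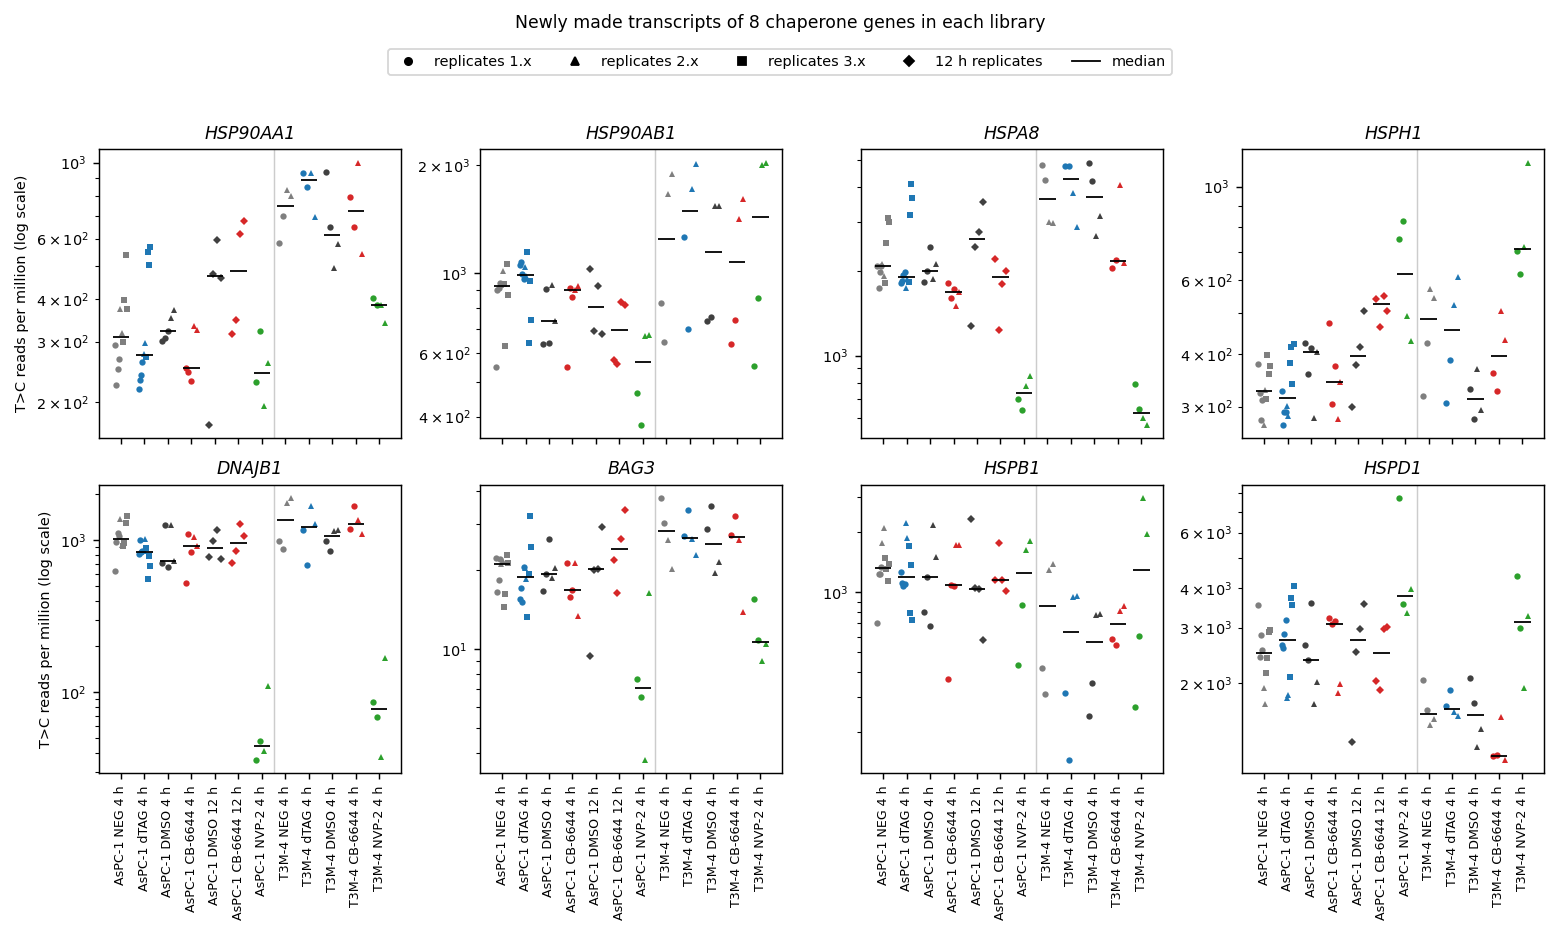
T>C CPM (log axis) of 8 members in each library of the 12 groups; each point is a library, its shape gives the first part of the replicate number, and the short line is the group median. DNAJB1 and HSPA8 in the NVP-2 groups lie below every DMSO library of the same line, and the CB-6644 and dTAG groups overlap their controls except for HSPA8 with CB-6644 for 4 h in AsPC-1.

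With NVP-2, new DNAJB1 and HSPA8 RNA fell in both lines, while HSPH1 and HSPD1 made up a larger part of the RNA that was still being labelled. In AsPC-1, 6 of the 9 members tested were called, 3 higher and 3 lower. Among all 11498 genes tested 30.5% were called, 12.9% higher and 17.6% lower. In T3M-4, 5 of 8 members were called, 2 higher and 3 lower, against 26.7% of 12242 genes (12.4% higher, 14.2% lower). The median change of the members tested was -0.33 in AsPC-1 and -0.24 in T3M-4, beside -0.05 and -0.12 over all genes. TMM sets the typical gene near 0 on this scale although the labelled percent of whole libraries was far lower with NVP-2. Each T>C fold change is thus relative to the rest of the T>C reads. When T>C counts were scaled by all reads instead, the median gene was at -3.05 in AsPC-1 and -2.97 in T3M-4, and 8 genes were called higher and 10650 lower in AsPC-1 and 10 and 10526 in T3M-4.

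DNAJB1, the J-domain partner of HSP70, had T>C CPM of 711.9, 1262, 660.1, 1257 and 729.2 in the AsPC-1 DMSO 4 h libraries and 35.8, 47.5, 40.8 and 110.3 with NVP-2. Every NVP-2 library was thus far below every DMSO library, the highest of them being replicate 2.2. The log2 fold change was -3.92 ± 0.41 (edgeR adjusted p = 7.37e-05), and 1.59% of genes had a lower one. In T3M-4 the values were 986.5, 842.7, 1146 and 1160 in DMSO and 85.6, 68.6, 37.3 and 168.3 with NVP-2. The groups again did not overlap, and the change was -3.49 ± 0.43 (adjusted p = 0.000564). Within the 2 batches of T3M-4 the log2 ratios were -3.50 and -3.49. The difference between lines was 0.40 ± 0.56 and was not called.

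DNAJB1 also fell in all reads, of which RNA made before treatment is a part. Its all-reads CPM was 219.7, 416.4, 242.7, 488.8 and 308.3 in AsPC-1 DMSO and 71.0, 108.7, 134.3 and 132.9 with NVP-2. The groups did not overlap, and the log2 fold change was -1.55 ± 0.29 (adjusted p = 0.00635). The background was 11.8% of genes called in all reads in AsPC-1 and 5.16% in T3M-4. In T3M-4 the DNAJB1 values were 359.9, 290.8, 402.2 and 391.1 against 162.2, 256.4, 218.4 and 158.7, a change of -0.85 ± 0.20 (adjusted p = 0.0424). That call was lost when NVP-2 replicate 1.1, 2.1 or 2.2 or DMSO replicate 1.1, 2.1 or 2.2 was left out (adjusted p 0.0802 to 0.131). BAG3 all-reads CPM was 5.25 to 8.60 in AsPC-1 DMSO and 2.38 to 4.96 with NVP-2, without overlap, and the change was -0.89 ± 0.25 (adjusted p = 0.0441). It was lost without any of NVP-2 1.1, 1.2 and 2.2 or DMSO 1.2, 1.3, 2.1 and 2.2 (adjusted p 0.0588 to 0.109), and in T3M-4 the BAG3 change was -0.09. In the main fits no other member was called in all reads in either line. With the replicate number as a block, more members were called in T3M-4 and fewer in AsPC-1.

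HSPA8, the constitutive HSP70, had T>C CPM of 1838, 2009, 2434, 1879 and 2132 in AsPC-1 DMSO 4 h and 697.9, 641.7, 775.9 and 847.8 with NVP-2. The NVP-2 libraries lay close together and below all controls, with a log2 fold change of -1.41 ± 0.19 (adjusted p = 0.000361). In T3M-4 the values were 4893, 4193, 2677 and 3151 in DMSO and 795.1, 643.1, 600.0 and 566.8 with NVP-2, a change of -2.47 ± 0.28 (adjusted p = 0.000417). HSPA8 was the member with the smallest p for a difference between lines (-1.09 ± 0.31, unadjusted p = 0.00218), but the adjusted p was 0.0982, and 0.851% of all genes were called in that test. In all reads HSPA8 was not called, at 0.36 ± 0.18 (adjusted p = 0.218) in AsPC-1 and -0.31 ± 0.36 in T3M-4. The T>C calls of DNAJB1 and HSPA8 were kept in both lines under every alternative processing tried, with an adjusted p of at most 0.00461.

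BAG3 T>C CPM was 16.7, 19.3, 26.3, 18.6 and 20.3 in AsPC-1 DMSO 4 h and 7.67, 6.52, 3.75 and 16.4 with NVP-2. Replicate 2.2 came close to the lowest control, and the change was -1.19 ± 0.41 (adjusted p = 0.0457). Leaving out any library other than NVP-2 2.2 ended the call (adjusted p 0.0623 to 0.104). In T3M-4 BAG3 was at 28.8, 35.2, 19.5 and 21.4 in DMSO and 15.5, 10.8, 8.95 and 10.4 with NVP-2. These groups did not overlap, and the change was -1.15 ± 0.37 (adjusted p = 0.041), a call lost without NVP-2 1.2 or 2.1 or any of the 4 DMSO libraries (adjusted p 0.0515 to 0.136). BAG3 had few T>C reads, 8 to 533 per AsPC-1 library and 24 to 1088 per T3M-4 library.

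HSPH1, the HSP110 chaperone, had T>C CPM of 425.1, 358.2, 414.1, 282.3 and 404.7 in AsPC-1 DMSO 4 h and 748.6, 828.5, 492.5 and 429.9 with NVP-2. The lowest NVP-2 library was just above the highest control. HSPH1 was called higher by 0.80 ± 0.24 (edgeR adjusted p = 0.0268) relative to other T>C reads but stood at -2.18 when scaled by all reads. The call was lost without NVP-2 1.1 or 1.2 or DMSO 2.1 (adjusted p 0.061 to 0.080), and with DMSO 12 h libraries as the controls (0.73, adjusted p = 0.0877). In T3M-4 HSPH1 was at 330.4, 281.0, 369.2 and 295.3 in DMSO and 702.8, 620.3, 719.7 and 1141 with NVP-2. It was called higher by 1.35 ± 0.27 (adjusted p = 0.0046), without overlap, and stood at -1.55 when scaled by all reads.

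HSPD1, the mitochondrial HSP60, had T>C CPM of 2639, 2367, 3601, 1716 and 2022 in AsPC-1 DMSO 4 h and 7734, 3556, 3330 and 3991 with NVP-2. The groups overlapped, and replicate 1.1 of NVP-2 stood apart. HSPD1 was called higher by 0.99 ± 0.30 (edgeR adjusted p = 0.0285) relative to other T>C reads but stood at -1.98 when scaled by all reads. Without NVP-2 1.1 the change was 0.61 (adjusted p = 0.0955), without DMSO 1.2, 2.1 or 2.2 the adjusted p was 0.051 to 0.0629, and with DMSO 12 h controls it was 0.0889. In T3M-4 the values were 2070, 1735, 1254 and 1430 in DMSO and 4374, 2994, 1924 and 3257 with NVP-2. HSPD1 was called there by 0.996 ± 0.30 (adjusted p = 0.0327), stood at -1.86 when scaled by all reads, and was lost without NVP-2 1.1, 1.2 or 2.2 or DMSO 1.2, 2.1 or 2.2 (adjusted p 0.0578 to 0.0907).

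Among the stress-inducible HSP70 genes, HSPA1B was called higher in AsPC-1 by 1.85 ± 0.58 (adjusted p = 0.0312) and stood at -1.22 when scaled by all reads. Its T>C CPM was 1.76, 3.34, 1.22, 1.85 and 1.19 in DMSO 4 h and 3.84, 3.26, 6.10 and 13.2 with NVP-2, from 4 to 50 T>C reads per library over all AsPC-1 libraries. The call was lost without NVP-2 2.2 (1.27, adjusted p = 0.128) and without DMSO 1.1, 1.3, 2.1 or 2.2 (adjusted p 0.0516 to 0.0646). In T3M-4 HSPA1B was at 0.227, 0.167, 1.11 and 0.348 in DMSO and 0, 0.231, 0 and 0.870 with NVP-2, and it was not tested. HSPA1A had no T>C read in any AsPC-1 NVP-2 library and in 3 of the 4 T3M-4 ones. At these counts neither direction could be told for HSPA1A.

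The HSP90 genes and HSPB1 were not called. HSP90AA1 T>C CPM ranged from 301.7 to 372.1 in AsPC-1 DMSO 4 h and from 194.2 to 321.8 with NVP-2, a change of -0.33 ± 0.20 (adjusted p = 0.241). In T3M-4 it ranged from 490.7 to 938 in DMSO and from 340.6 to 403.4 with NVP-2, and although the groups did not overlap the change of -0.77 ± 0.26 had an adjusted p of 0.0515, which was 0.0308 in DESeq2. HSP90AB1 was at -0.43 ± 0.23 in AsPC-1 and 0.28 ± 0.45 in T3M-4. HSPB1 was at -0.04 ± 0.43 and 1.47 ± 0.68 (adjusted p = 0.134), its T3M-4 libraries at 239.3, 349.1, 774.0 and 781.5 in DMSO and 264.5, 606.2, 2982 and 1972 with NVP-2. On the scale of each comparison's own fit, 2 of 9 members (HSPA1B and HSPH1) had all NVP-2 libraries above all controls in AsPC-1 and 2 (DNAJB1 and HSPA8) below them, where 10.2% and 18.2% of all genes did so. In T3M-4 HSPH1 was above and DNAJB1, HSPA8, BAG3 and HSP90AA1 below, against 13.1% and 21.2% of genes.

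The AsPC-1 NVP-2 libraries carry batch 2 in the labels and their DMSO 4 h controls batch 1, so the treatment and the batch cannot be told apart in that comparison. Against the DMSO 12 h libraries of batch 2, which differ in time, DNAJB1 and HSPA8 remained called. In T3M-4 each batch held NVP-2 and DMSO libraries, and the within-batch DNAJB1 and HSPA8 ratios, -2.59 and -2.31 for HSPA8, kept their direction.

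**Figure D2:**
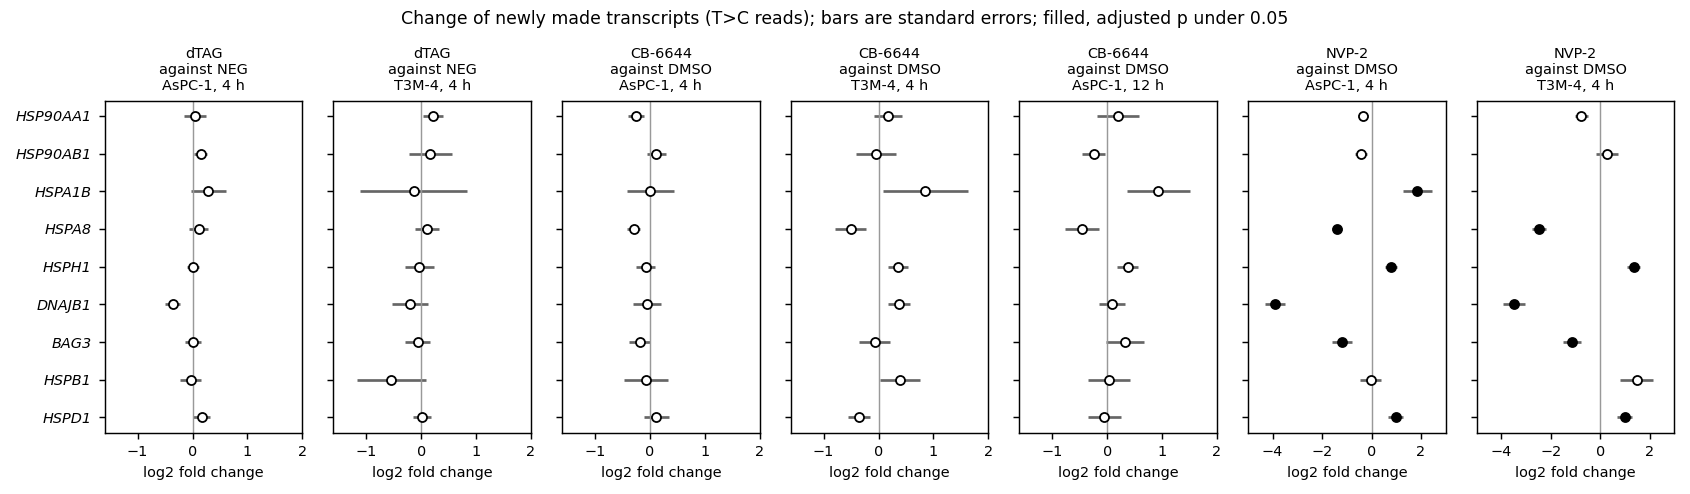
Log2 fold change of T>C reads ± SE of 9 members in the 7 comparisons; filled points have an adjusted p below 0.05, and the NVP-2 panels have a wider x axis. Filled points appear only in the NVP-2 panels, with DNAJB1 and HSPA8 farthest to the left; HSPH1 and HSPD1 to the right in both lines, and HSPA1B in AsPC-1, are at negative values when T>C counts are scaled by all reads. HSPA1B was not tested with NVP-2 in T3M-4.

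The labelled share, which needs no scaling between libraries, was lower with NVP-2 for every member tested, 9 of 9 in AsPC-1 and 8 of 8 in T3M-4, where 95.9% and 93.8% of all genes were called. The members differed in how many times lower their mean shares were. That fold depends on the share in DMSO as well, and conversions not due to labelling were not subtracted. DNAJB1 shares were 33.4%, 32.9%, 29.0%, 23.3% and 21.7% in AsPC-1 DMSO 4 h and 0.794%, 0.539%, 0.381% and 0.896% with NVP-2, a mean 43.0 times lower. In T3M-4 they were 40.4%, 41.5%, 32.8% and 33.9% against 1.08%, 0.670%, 0.220% and 1.57%, 42.0 times lower. DNAJB1 had among the highest labelled shares of the members in DMSO, and its AsPC-1 mean with NVP-2, 0.652%, was near those of HSPB1 (0.406%), HSP90AA1 (0.503%) and HSPA8 (0.541%).

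HSPA8 shares were 15.4%, 16.5%, 15.0%, 13.4% and 13.5% in AsPC-1 DMSO and 0.548%, 0.613%, 0.485% and 0.517% with NVP-2, 27.3 times lower in the mean, and 32.8 times lower in T3M-4, where NVP-2 gave 0.626% to 0.765%. HSPH1 kept more: 5.49%, 4.5%, 3.21% and 2.55% with NVP-2 in AsPC-1 against 14.8% to 22.1% in DMSO, 4.69 times lower, and 3.48 times lower in T3M-4. HSPD1 had 3.21%, 2.08%, 1.38% and 1.39% against 8.84% to 11.7%, 5.08 times lower, and 3.47 times lower in T3M-4. The other members lay between, with mean shares lower by 11.4 times in AsPC-1 and 11.3 in T3M-4 for HSP90AA1, 12.1 and 8.88 for HSP90AB1, 9.58 and 6.83 for HSPB1, and 9.45 and 15.4 for BAG3. HSPA1B, from few reads, was 2.51 times lower in AsPC-1. On the log2 odds scale DNAJB1 was at -5.94 in AsPC-1 and -6.37 in T3M-4 (limma adjusted p = 3.75e-07 and 3.55e-05) and HSPA8 at -4.99 and -5.40 (3.75e-07 and 1.24e-05). HSPH1 was at -2.51 and -2.06 and HSPD1 at -2.56 and -2.03. The median over all genes tested was -3.42 in AsPC-1 and -3.62 in T3M-4, and that of the members -3.57 and -3.47.

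**Figure D3:**
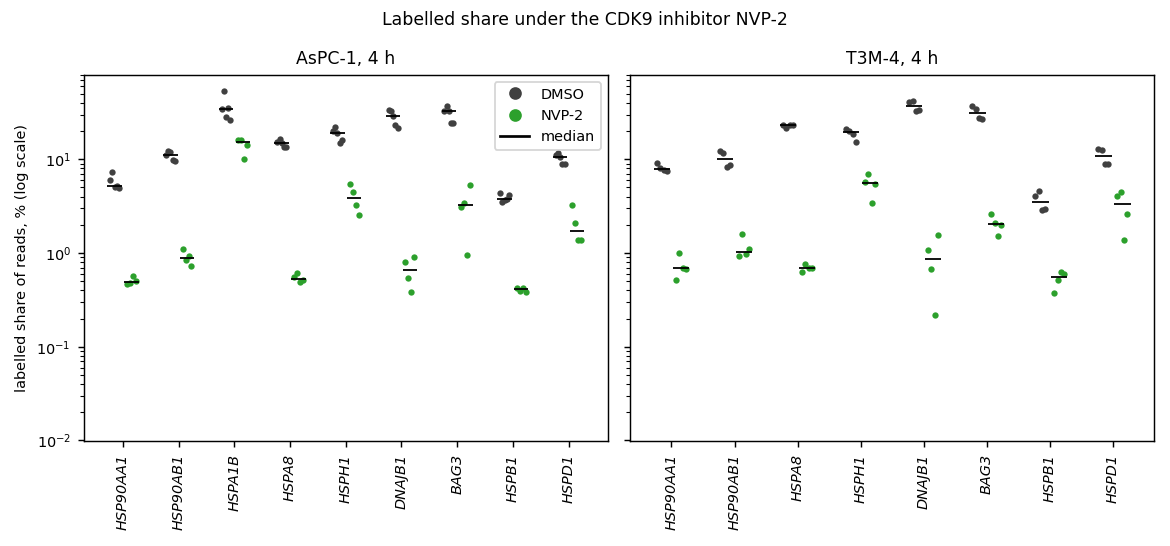
Labelled share (percent of a gene's reads with T>C conversions, log axis) of the members in DMSO 4 h and NVP-2 libraries of each line, 1 point per library. All NVP-2 points lie below the DMSO points of the same gene, with the widest gap for DNAJB1, followed by HSPA8, and narrower ones for HSPH1, HSPD1 and, in AsPC-1, HSPA1B.

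CB-6644 inhibits the ATPases of the R2TP co-chaperone, and no member was called in T>C reads in any of its 3 comparisons. Neither was any other gene: edgeR called 0 of 11649 genes in AsPC-1 at 4 h (0%), 0 of 13444 in T3M-4 and 0 of 12204 in AsPC-1 at 12 h. At an unadjusted p below 0.05 there were 482, 569 and 473 genes, or 4.14%, 4.23% and 3.88%, and DESeq2 called 1, 7 and 26 genes, none of them a member. At that level 1 of 9 members, HSPA8, passed in AsPC-1 at 4 h, and none in the other comparisons. The median over the members tested was -0.07, 0.26 and 0.08 in these 3 comparisons, beside -0.01, 0.003 and -0.01 over all genes.

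HSPA8, the 1 member at an unadjusted p below 0.05 in T>C reads, is given in full. Its T>C CPM in AsPC-1 was 1838, 2009, 2434, 1879 and 2132 in DMSO 4 h and 1813, 1609, 1723, 1498 and 1693 with CB-6644. All treated libraries were below all controls by a narrow margin, as for 0.343% of genes, and the change was -0.29 ± 0.12 with an unadjusted edgeR p of 0.0283 and an adjusted p of 0.979. At 12 h the libraries were at 1274, 2438, 2769 and 3527 in DMSO and 2216, 1231, 1801 and 2003 with CB-6644. These overlapped widely, at -0.46 ± 0.30 (adjusted p = 0.998). In T3M-4 HSPA8 was at 4893, 4193, 2677 and 3151 in DMSO and 2059, 2194, 4057 and 2146 with CB-6644. Replicate 2.1 of CB-6644 was high, and the change was -0.51 ± 0.28 (adjusted p = 0.994). Within batches it was -1.11 in batch 1 and 0.09 in batch 2, so the direction did not hold in both.

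The labelled share of HSPA8 was lower with CB-6644 in AsPC-1 at both times. At 4 h it was 15.4%, 16.5%, 15.0%, 13.4% and 13.5% in DMSO and 8.94%, 10.1%, 10.3%, 11.3% and 12.0% with CB-6644. No treated library reached a control, and the mean was 10.5% ± 1.19 against 14.8% ± 1.29 (SD, n = 5 each). The log2 change of the odds was -0.56 ± 0.13, with an unadjusted limma p of 0.00148 and an adjusted p of 0.086. At 12 h the shares were 13.6%, 15.7%, 13.4% and 12.3% in DMSO and 11.2%, 10.5%, 9.89% and 9.52% with CB-6644. They again did not overlap, and the change was -0.47 ± 0.14 (unadjusted p = 0.00811, adjusted p = 0.968). In T3M-4 the shares were 23.2%, 21.8%, 23.1% and 22.9% in DMSO and 14.6%, 13.8%, 23.9% and 19.2% with CB-6644. Replicate 2.1 lay above every control, the others below, and the change was -0.47 ± 0.24 (unadjusted p = 0.0842, adjusted p = 0.9995). HSPA8 in all reads was at -0.02, -0.24 and -0.08 in the same 3 comparisons.

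**Figure D4:**
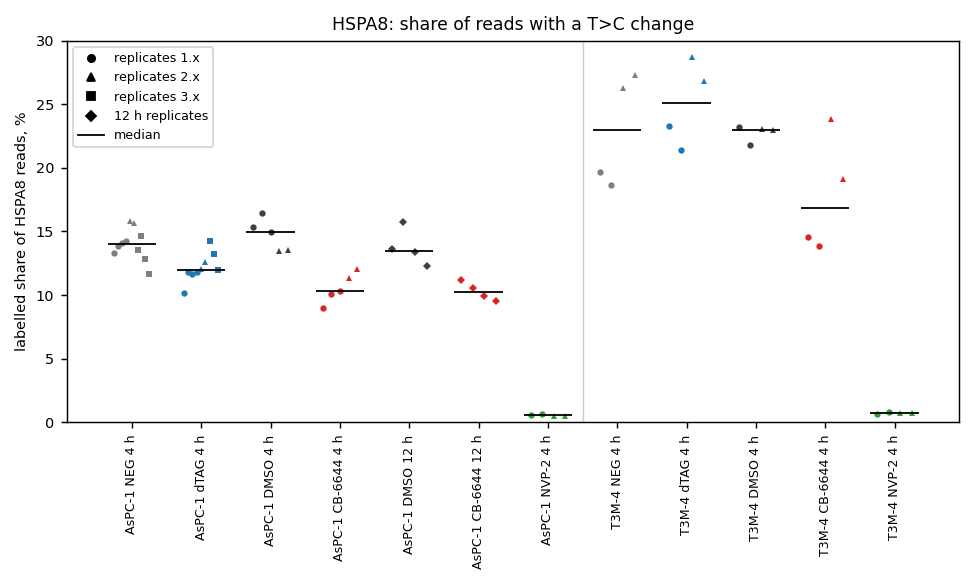
Labelled share of HSPA8 (percent) in each library of the 12 groups, with group medians. The CB-6644 libraries of AsPC-1 lie below their DMSO controls at 4 h (8.94% to 12.0% against 13.4% to 16.5%) and at 12 h (9.52% to 11.2% against 12.3% to 15.7%), and those of T3M-4 spread from 13.8% to 23.9% around controls at 21.8% to 23.2%.

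Other members showed lower shares at 4 h in AsPC-1 as well, and so did many genes. Limma called 0 of 11649 shares (0%), and 23.1% of genes had an unadjusted p below 0.05, as did 5 of 9 members. HSPB1 was at 3.48% to 4.41% in DMSO and 2.28% to 2.82% with CB-6644 (-0.63 ± 0.12, unadjusted p = 0.000306, adjusted p = 0.0692), a larger change and a smaller p than those of HSPA8. DNAJB1 was at 21.7% to 33.4% in DMSO and 20.5% to 21.2% with CB-6644 (-0.54 ± 0.18, adjusted p = 0.142), and HSP90AB1 at 9.60% to 12.1% and 8.47% to 9.36% (-0.32, adjusted p = 0.171). HSP90AA1 was at -0.37 (adjusted p = 0.2). With HSPA8 this made 4 of 9 members with every treated library below every control, where 7.55% of all genes did so. The median change was -0.35 over the members and -0.27 over all genes. The labelled percent of the whole libraries was 8.51% ± 0.25 against 10.1% ± 0.62 (n = 5 each), and its part in these lower shares was not tested. No member was called either when each library was centred on its median gene. At 12 h HSPA8 and HSP90AB1 (8.45% to 9.53% against 9.66% to 11.2%) were the 2 of 9 members below all controls, against 2.04% of genes, and the HSPB1 and DNAJB1 shares overlapped those of DMSO.

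The other members were not called in T>C reads with CB-6644 either. HSP90AA1 T>C CPM in AsPC-1 at 4 h ran lower, from 230.5 to 333.2 against 301.7 to 372.1 in DMSO, with overlap. Its change was -0.25 ± 0.14 there, 0.17 in T3M-4 and 0.20 ± 0.38 in AsPC-1 at 12 h. DNAJB1 was at -0.05 ± 0.25, 0.37 ± 0.20 and 0.08, its T3M-4 libraries reaching 1685 T>C CPM with CB-6644 and 1160 in DMSO, and HSPH1 at -0.08, 0.35 ± 0.19 and 0.37 ± 0.19, none of them called. HSPA1B had every treated library above every control at 12 h (1.65 to 2.86 T>C CPM against 0.283 to 1.53), as 1.84% of genes did, but its change of 0.93 ± 0.57 had an unadjusted p of 0.135. HSP90AB1, HSPB1, HSPD1 and BAG3 lay between -0.36 (HSPD1 in T3M-4) and 0.39 (HSPB1 in T3M-4). No member differed between lines or between times in its response to CB-6644 at an unadjusted p below 0.05. The R2TP genes themselves were not called: in the order AsPC-1 4 h, T3M-4 4 h and AsPC-1 12 h, RUVBL1 was at 0.14, -0.10 and 0.07, RUVBL2 at 0.41, -0.15 and -0.09, PIH1D1 at -0.15, 0.16 and -0.22, and RPAP3 at -0.04, -0.10 and 0.34.

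When KLF5 was degraded, no member was called in T>C reads in either line. Over all genes, 2.4% of 11696 (281 genes) were called in AsPC-1 and 0.834% of 13424 (112 genes) in T3M-4. With the replicate number as a block 867 and 298 genes were called, again without a member. DNAJB1 had the lowest value in AsPC-1, with T>C CPM of 629.9 (lowest), 1018 (median) and 1446 (highest) in the 10 NEG libraries and 550.7, 840.2 and 1013 in the 10 dTAG libraries. The groups overlapped over most of their range, and the change was -0.36 ± 0.13 with an unadjusted p of 0.0116 and an adjusted p of 0.202. Experiment stands here for the first part of the replicate number, a reading of the sample titles. By experiment the DNAJB1 log2 ratio was -0.10, -0.28 and -0.67. It was called only when T>C counts were scaled by all reads (-0.63, adjusted p = 0.00213), a scale on which the median gene was at -0.24. DNAJB1 in all reads was at -0.33 ± 0.13 (adjusted p = 0.466, with 0.797% of genes called), and in T3M-4 T>C reads at -0.20 ± 0.32. The other 8 members tested in AsPC-1 ranged from -0.03 (HSPB1) to 0.29 ± 0.32 (HSPA1B). In T3M-4 the 10 members ranged from -0.64 ± 1.08 (HSPA1A) to 0.22 ± 0.18 (HSP90AA1), and the lowest unadjusted p was 0.252. That fit had no term for the experiment. Within experiments 1 and 2 of T3M-4 the log2 ratio was -0.68 and -0.50 for HSPB1 and 0.41 and 0.05 for HSP90AB1. The median over the members was 0.05 in AsPC-1 and -0.05 in T3M-4, beside 0.03 and 0.01 over all genes.

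The labelled share of 5 of 9 members fell with dTAG in AsPC-1, where 40.2% of all genes were called, nearly all lower (40.1%). DNAJB1 shares were 22.2%, 25.4% and 27.6% (lowest, median and highest of 10 NEG libraries) and 18.6%, 20.2% and 23.0% in the 9 dTAG libraries. The ranges overlapped a little, and the change was -0.39 ± 0.08 (limma adjusted p = 0.00169). HSPH1 was at -0.39 ± 0.09 (adjusted p = 0.00558), BAG3 at -0.40 ± 0.11 (0.0122), HSPA8 at -0.23 ± 0.08 (0.0324) and HSP90AB1 at -0.18 ± 0.07 (0.0345). HSP90AA1 was at -0.29 ± 0.12 (adjusted p = 0.0631) and became a call with the replicate block (-0.24, adjusted p = 0.0305). The median over the members was -0.26 and over all genes -0.33, so the median over the members was no lower than that of all genes, and none was called when each library was centred on its median gene. Without experiment 1 none of the 5 was called (DNAJB1 -0.41, adjusted p = 0.0906), without experiment 2 only HSPH1 and DNAJB1 were, and without experiment 3 these 5 and HSP90AA1, HSPB1 and HSPD1 were. In T3M-4 no member share was called, with 0.0894% of genes called.

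Levels of total RNA of the chaperone genes differed between the lines in part. In all reads of DMSO 4 h libraries, compared as T3M-4 minus AsPC-1, 3 of the 9 members tested were called, where 55.7% of 15464 genes were called (30.5% higher in T3M-4, 25.2% lower). Both HSP90 genes and BAG3 were higher in T3M-4. HSP90AB1 differed by 1.01 ± 0.28 (edgeR adjusted p = 0.0113), HSP90AA1 by 0.78 ± 0.23 (0.0149) and BAG3 by 0.59 ± 0.22 (0.0427). HSPH1 and DNAJB1 were both at 0.03, HSPA8 at 0.58 (adjusted p = 0.0822), HSPD1 at -0.39, HSPA1B at -0.46 and HSPB1 at -0.76 ± 0.44 (0.164). BAG3 lost its call without T3M-4 DMSO 1.1 or 1.2 or AsPC-1 DMSO 1.1, 1.2, 2.1 or 2.2 (adjusted p 0.0554 to 0.141), and HSPA8 gained one without T3M-4 DMSO 2.1 (0.0239). Within batch 1, HSP90AB1 differed by 0.28 (adjusted p = 0.279), HSPA8 by 0.98 (0.00298) and HSPB1 by -1.80 (0.0118).

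The T3M-4 controls (DMSO and NEG together, n = 4 in each experiment) split by experiment in these genes. All-reads CPM of HSP90AB1 was 902 ± 92.9 (SD) in experiment 1 and 2178 ± 107 in experiment 2, and that of HSPB1 1134 and 3065. HSPA8 went the other way, at 3071 and 1424, as did HSP90AA1 (1191 and 779) and BAG3 (13.1 and 8.37). In T>C reads HSP90AB1 was at 741 and 1656, HSPB1 at 329 and 1058, DNAJB1 at 922 and 1486, HSPA8 at 4528 and 2950 and HSPD1 at 1875 and 1424. The inducible HSP70 genes, with few reads, were at 0.337 and 5.31 (HSPA1A) and 0.207 and 1.67 (HSPA1B). The experiments coincide with the batches of the labels. AsPC-1 libraries fell into 3 sets, A, B and C, when clustered on the 500 most variable genes in all reads, and the groups were unevenly spread over them (DMSO 4 h 2, 1 and 2 libraries, CB-6644 4 h 1, 2 and 2). In the DMSO and NEG libraries of sets A, B and C (n = 8, 7 and 4), HSPA8 T>C CPM was 1968 ± 400, 2699 ± 561 and 2014 ± 131 (SD), and HSPD1 was at 2418 ± 612, 3052 ± 387 and 1847 ± 152. Blocking on these sets and the experiment gave 981 called genes for dTAG in AsPC-1 and 0 for CB-6644 at 4 h, no member among them.

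Pairs of members were also compared across libraries, where the T3M-4 values hold the split by experiment and the AsPC-1 values the library sets just described. HSPB1 T>C CPM in the AsPC-1 controls of sets A, B and C was 1266, 1057 and 1887. For the correlations that follow, T>C CPM was taken without TMM scaling, as log2(CPM + 1). Over the 38 AsPC-1 and 16 T3M-4 libraries without NVP-2, HSPB1 and HSPD1 had a Pearson r of -0.80 and -0.68. HSPA8 and HSPD1 had r of 0.58 and 0.92. HSP90AB1 and HSPB1 had r of 0.66 and 0.79, and DNAJB1 and HSPB1 of 0.56 and 0.78. HSPA8 and BAG3 had r of 0.56 and 0.59, and the HSP90 pair, HSP90AA1 and HSP90AB1, of -0.26 and -0.14. Pairs with HSPH1, except that with HSP90AA1 (r of 0.53 and 0.33), went opposite ways in the lines. Among them were HSP90AB1, with r of -0.61 and 0.53, and HSPB1, with -0.41 and 0.57. The genes share libraries, depth and treatment groups, and these values describe the libraries only. Among 8014 genes with a mean of at least 10 CPM, those most like HSP90AA1 over the AsPC-1 libraries were MAEA (r = 0.857, and 0.644 in T3M-4), NSA2 (0.822 and 0.399) and PGK1 (0.814 and 0.555). Those most like DNAJB1 were SMPD4 (0.876 and 0.209), SMPD4BP (0.872 and 0.181) and YKT6 (0.851 and 0.543). HSPA1A was too low for this measure.

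The wider chaperone network was read from lists of HSP90 co-chaperones, R2TP, heat shock factor, HSP70 partner, organelle chaperone, small heat shock protein and chaperonin genes. In the dTAG and CB-6644 comparisons of T>C reads no gene of these lists was called. An exception was dTAG in AsPC-1 with T>C counts scaled by all reads, where 3 of 44 were called lower. With NVP-2, the counts stand against 30.5% of all genes called in AsPC-1 (12.9% higher) and 26.7% in T3M-4 (12.4% higher). Of the HSP90 co-chaperones 5 of 12 were called in AsPC-1, 3 higher and 2 lower, and 6 of 12 in T3M-4, 4 higher and 2 lower. FKBP4, an immunophilin of steroid receptor complexes, was higher in both lines, at 1.29 ± 0.32 (AsPC-1, adjusted p = 0.0107) and 1.64 ± 0.32 (T3M-4, 0.00432). STIP1, which links HSP70 to HSP90, was higher by 1.08 ± 0.32 (0.0229) and 2.08 ± 0.43 (0.00599). STUB1, a ubiquitin ligase, was higher in AsPC-1 by 1.13 ± 0.35 (0.0311), and PTGES3, the p23 co-chaperone, in T3M-4 by 1.28 ± 0.25 (0.00435). TTC4 was lower, at -1.93 ± 0.40 (0.00433) and -1.45 ± 0.29 (0.00521), and so was CHORDC1, at -1.37 ± 0.26 (0.00221) and -1.69 ± 0.48 (0.0247). The co-chaperone median was 0.59 in AsPC-1 and 0.19 in T3M-4, beside -0.05 and -0.12 over all genes.

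Of the HSP70 partners and relatives, 2 of 11 were called in AsPC-1 and 4 of 10 in T3M-4, against the same 30.5% and 26.7% of all genes. There DNAJC7 was higher by 2.39 ± 0.43 (adjusted p = 0.0028), while the J-domain genes DNAJA1 (-1.52 ± 0.31, 0.00542) and DNAJB4 (-2.04 ± 0.49, 0.0113) and the exchange factor BAG1 (-1.15 ± 0.35, 0.0354) were lower. TRAP1, the mitochondrial HSP90, was the 1 of 5 organelle chaperones called in AsPC-1 (1.13 ± 0.25, 0.00618) and 1 of the 2 called in T3M-4 (1.36 ± 0.25, 0.0036). HSF2 was lower in AsPC-1 at -1.39 ± 0.44 (0.0329), the 1 of 3 heat shock factor genes called, and none of 3 was in T3M-4. SERPINH1, the collagen chaperone, was lower in AsPC-1 at -1.47 ± 0.36 (0.00972), and of the 8 subunits of the cytosolic chaperonin 1 was called lower in AsPC-1 and 1, CCT4, higher in T3M-4 (1.06 ± 0.30, 0.024). None of the 4 R2TP genes was called with NVP-2, RUVBL1 being at 0.96 (0.0848) and RUVBL2 at 1.03 (0.0661) in AsPC-1. All these higher values are relative to other T>C reads, as for HSPH1 and HSPD1. With T>C counts scaled by all reads, no gene of these lists was called higher, and 44 of 44 tested in AsPC-1 and 42 of 45 in T3M-4 were called lower. On that scale FKBP4 was at -1.68 and -1.31 (AsPC-1 and T3M-4), STIP1 at -1.93 and -0.87 and TRAP1 at -1.89 and -1.48. STUB1 was at -1.92 in AsPC-1, and in T3M-4 PTGES3 was at -1.62, CCT4 at -1.91 and DNAJC7, not called, at -0.48 (adjusted p = 0.237).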

How the data were processed

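SLAM-seq was performed on 4sU-labelled polyA RNA with QuantSeq 3′ libraries. Per the labels and the methods, the authors mapped single-end reads to GENCODE 44 3′UTR exons (hg38) with slamdunk at default settings (version not given in the sources used here), and deposited raw counts of T>C reads and of all reads, summed by gene name. Of the columns, 18 had no name and no values.

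Groups were taken from the labels. Counts were tested with edgeR 4.0.16 (TMM, filterByExpr, glmQLFit and glmQLFTest) in R 4.3.3, within the groups of each comparison and without covariates. The labelled share was tested with limma 3.58.1 on log2 odds with a pseudocount of 0.5. P-values were Benjamini-Hochberg adjusted over all genes tested. The scripts were tested on simulated data first. The 10 members and the gene lists were chosen with earlier results of these data known. All members are named; of the pathway lists, genes called in T>C reads with an absolute log2 fold change of at least 1, at most 3 per list and direction by p; R2TP genes in the CB-6644 comparisons; and for HSP90AA1 and DNAJB1 the 3 genes of highest Pearson r over log2(CPM + 1).

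Alternatives were DESeq2 1.42.0, size factors as DESeq2 makes them, T>C counts scaled by all reads, no filter, a pseudocount of 5, centring, batch-wise fits, other controls, leaving out libraries or experiments, and replicate number, or library set and experiment, as a block. Same-numbered libraries deviated together in every pair (r over 0.1) for dTAG in AsPC-1 (10 of 10 pairs, lowest r 0.176), dTAG in T3M-4 (4 of 4, 0.427) and CB-6644 in T3M-4 (4 of 4, 0.235), and these were taken as paired from the data, not from the labels, although 4 of 10, 4 of 4 and 1 of 4 numbers correlated best with their own. The main fits did not use this pairing, which entered only as the replicate block. Promoter sequences are from RefSeq (GRCh38.p14).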

Additional observations from a re-analysis of the deposited data

Results flagged for a closer look

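A library was picked out where its gap to the nearest other library of its group was large against the range of the group (Dixon's test at the 95% level). T>C CPM was tested in 119 groups of libraries over the members, 7 were picked out, and chance picks out about 1 in 20. DNAJB1 was at 110.3 in AsPC-1 NVP-2 replicate 2.2, with the others at 35.8 to 47.5. HSPD1 was at 7734 in AsPC-1 NVP-2 replicate 1.1, with the others at 3330 to 3991. HSP90AB1 was at 549.8 in AsPC-1 CB-6644 4 h replicate 1.1, below the others. HSPA1B was at 2.86 in AsPC-1 CB-6644 12 h replicate 3. In T3M-4 CB-6644, replicate 2.1 was high both for HSPA8, at 4057 (2059 to 2194 in the others), and for HSPD1, at 1563. HSPA1A was at 0.746 in T3M-4 NVP-2 replicate 2.1 and at 0 in the other 3 libraries.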

How the results depend on the processing

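Of 2494 refits of a member in a comparison, 2374 stayed on their side of the threshold with no called direction turned (in 251 of them a value that was not called changed sign), 84 lost a call, 19 gained one and 17 turned a called direction. With T>C counts scaled by all reads, members called with dTAG in AsPC-1 went from 0 to 1 and with NVP-2 in T3M-4 from 5 to 8. NVP-2 values on that scale turned to -1.22 (HSPA1B), -2.18 (HSPH1) and -1.98 (HSPD1) in AsPC-1 and -2.68 (HSP90AB1), -1.55 (HSPH1), -1.57 (HSPB1) and -1.86 (HSPD1) in T3M-4. With each library centred on its median gene, shares called went from 5 to 0 for dTAG in AsPC-1 (HSP90AB1 at 0.14, HSPA8 at 0.09), from 9 to 5 for NVP-2 in AsPC-1 (HSPA1B 1.79, HSPH1 0.97, HSPB1 0.18, HSPD1 0.93) and from 8 to 5 in T3M-4 (HSP90AB1 0.17, HSPH1 1.41, HSPB1 0.65, HSPD1 1.44). Both are set by the scale itself.

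Without a filter, NVP-2 calls went to 3 (T>C, T3M-4) and 1 (all reads, AsPC-1), and with DMSO 12 h controls to 3 (T>C, AsPC-1). The cause was not tested. Leaving out 1 library gave 2 to 5 (of 6) and 3 to 5 (of 5) T>C calls with NVP-2 in AsPC-1 and T3M-4, 1 to 2 and 0 to 1 all-reads calls, and 2 to 4 calls between lines. Leaving out an experiment gave 0 to 8 share calls with dTAG in AsPC-1.

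The replicate block moved NVP-2 calls from 6 to 3 (T>C, AsPC-1), 2 to 1 (all reads, AsPC-1) and 1 to 4 (all reads, T3M-4). With NVP-2, 3 of 4 pairs in each line had r over 0.1 (lowest r -0.21 and 0.0903, median 0.11 and 0.269). Since not every pair did, these libraries were not taken as paired. Of the numbers, 3 of 4 and 2 of 4 correlated best with their own. CB-6644 in AsPC-1 was not taken as paired either (lowest r 0.0334 and 0.0132). For the levels, the block was chosen after seeing the data. Beside HSP90AA1 in the dTAG share, it changed no member's call where pairing held.

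Genes called over all genes moved by over 1.5 times with DESeq2 (dTAG T>C 495 of AsPC-1 and 348 of T3M-4; all reads, dTAG 219 and 70, NVP-2 2740 and 1451), the block (all reads, dTAG 542 and 47, NVP-2 1021 and 2626), scaling by all reads (1190 with dTAG in AsPC-1) and centring (84, 3326 and 3299 shares). Leaving out libraries or experiments gave 36 to 256 and 22 to 70 dTAG T>C calls. BAG3, HSPA1A and HSPA1B are limited by their few T>C reads.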

Other observations

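Heat shock elements of the same form were also counted in the promoters of the wider chaperone lists. A match stood in 3 of 11 HSP70 partners and relatives with a window (27.3%), 1 of 10 HSP90 co-chaperones and 1 of 2 small heat shock protein and collagen chaperone genes. None stood in the 3 R2TP genes with a window, the 2 heat shock factor genes, the 5 organelle chaperones or the 7 chaperonin subunits. These are counts of matches to letters in a fixed window, with no test.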
